A study of Homo sapiens with 36 samples.

Results

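FOXO1, FOXO3, IRS1, IRS2, PIK3R1, PIK3R3, PIK3IP1, SESN3 and TSC22D3 are 9 genes of the route that runs from the insulin receptor through PI3-kinase to the FOXO transcription factors. They were taken by symbol from the deposited expression tables, and all 9 were listed in both tables, among 13364 genes in one and 13066 in the other. The genes were selected on measured values, since the treated-minus-control differences of PIK3R3, SESN3 and TSC22D3 were large. Those differences are therefore given below as descriptions with no test, while the other 6 genes, taken as their pathway partners, carry a test in the same comparisons.

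The study measured RNA from 501mel and IGR37, which are established human melanoma cell lines, after inhibition or knockdown of stearoyl-CoA desaturase (SCD), the enzyme that makes monounsaturated fatty acids. Each line had 6 groups of 3 libraries, 36 in all, collected at 48 h. The groups were DMSO vehicle, the SCD inhibitor A939372 at 1 uM (called SCDi), an siRNA called siSCD#1 with control siRNA libraries called siCTR_1, and an siRNA called siSCD#2 with control libraries called siCTR. All siRNAs were used at 20 nM, both controls are labelled siCTRL, and every group was grown in RPMI medium with 10% serum. The DMSO, SCDi, siCTR and siSCD#2 libraries form one table of 24 libraries, and siCTR_1 and siSCD#1 form another of 12. The tables were normalised separately, so each comparison stays within one table and levels are not compared across them. Nothing in the labels says that the 3 libraries of a group came from separate cultures, so the p-values measure the spread between these libraries, which may be technical.

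Insulin and insulin-like growth factors act through receptors that phosphorylate the adaptor proteins IRS1 and IRS2. The adaptors recruit PI3-kinase, a pair of a regulatory and a catalytic subunit, which makes the membrane lipid that activates the kinase AKT. AKT phosphorylates FOXO1 and FOXO3 and keeps them out of the nucleus, and when AKT is quiet they enter it and turn on genes such as IRS2, SESN3 and TSC22D3. In melanoma the same route is known for supporting growth and survival. The measurements here are of transcripts, and neither FOXO location nor AKT phosphorylation was measured.

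The transcripts were counted from tags at their 3′ ends, and values are log2 CPM, read counts scaled to a normalised library size. A difference of 1 is a doubling. Libraries held between 2402788 and 7483010 reads on genes, and spike-in RNA made up between 2.431% and 7.209% of reads. The spike-in share was 5.12% to 5.71% with siSCD#1 against 3.76% to 4.29% with siCTR_1 in 501mel, 5.16% to 6.96% with siSCD#2 against 3.81% to 5.08% with siCTR in 501mel, and 5.05% to 7.21% against 4.35% to 4.83% in IGR37. It ran the other way with SCDi in 501mel, at 2.43% to 3.61% against 3.57% to 4.37% with DMSO. In IGR37 the ranges overlapped with siSCD#1 (4.58% to 5.50% against 4.0% to 4.75%) and with SCDi (4.30% to 4.83% against 3.76% to 4.59%). Values are relative to a normalised library size, which differs from the plain total of the library. The part of the spike-in share in them was not tested. In the siRNA libraries SCD itself fell from 9.79 to 6.94 (siSCD#1) and from 9.36 to 5.03 (siSCD#2) in 501mel, and from 10.09 to 7.43 and 10.12 to 5.97 in IGR37. SCD transcript is no check of the SCDi libraries, since A939372 blocks the protein. All 7 melanocyte lineage markers were listed (3329.4 to 7693 CPM summed), and none of 5 blood markers was listed. Fibroblast, endothelial and epithelial markers were listed in part, and summed to at most 19.6, 5.7 and 8.9 CPM.

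Short stretches of 3 promoters are shown because they hold words that bear on this route. GTAAACA is a core word bound by FOXO proteins, and TGATGNAA is a word of the amino acid response, through which the stress factor ATF4 acts. They were searched on both strands, from 250 bases before to 50 after each start site, in RefSeq promoters (GRCh38.p14), where all 9 genes were matched by 24 promoters. The words do not overlap each other, and capitals mark them below, each read 5′ to 3′ on the plus strand.
PIK3IP1: tgctgttctgGTAAACAgcctctcttt
TSC22D3: ggctgggactGTAAACAgttcagcact
PIK3R1: ctggggcgtgTGATGTAAtaggtttcag
The PIK3IP1 stretch is chr22:31292456-31292482 and the TSC22D3 stretch is chrX:107717193-107717219, both read on the strand opposite to the gene. The PIK3R1 stretch is chr5:68290599-68290626, on the strand of the gene, with its word starting 55 bases before a start site. GTAAACA was present in 2 of the 24 promoters (2 of the 9 genes), and over all promoters in 1202 of 35116 (3.42%), or 1145 of 27305 genes (4.19%). TGATGNAA was present in 1 of the 24 promoters (1 of the 9 genes) and in 1270 of 35116 promoters (3.62%), or 1217 of 27305 genes (4.46%). The 9 genes had 1 to 6 promoters each, so counts by gene depend on how much sequence was searched. A match is a description of these letters and not a binding site.

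IRS2, the adaptor that FOXO factors are known to turn on, was higher after every SCD treatment of IGR37 and after both siRNAs in 501mel. In IGR37 the DMSO libraries were at 8.85, 8.67 and 8.66 and the SCDi libraries at 9.28, 9.27 and 9.39. The siCTR_1 libraries were at 8.62, 8.68 and 8.69 and the siSCD#1 libraries at 9.87, 9.99 and 10.02. The siCTR libraries were at 8.34, 8.40 and 8.23 and the siSCD#2 libraries at 9.0, 8.81 and 9.0. No treated library of IGR37 overlapped its controls. IRS2 rose by 0.59 ± 0.08 (SE) with SCDi (limma, Benjamini-Hochberg adjusted p = 7.37e-07), by 1.30 ± 0.07 with siSCD#1 (adjusted p = 1.54e-09) and by 0.61 ± 0.08 with siSCD#2 (adjusted p = 4.23e-07). The size of the siSCD#2 rise depends on the control set beside it. The siCTR mean (8.32) lay below the DMSO mean (8.73), a difference of -0.40 ± 0.08 that was looked at after its values were seen. The siSCD#2 mean was 8.94, and its library at 8.81 lay below the DMSO library at 8.85.

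In 501mel IRS2 was at 8.41, 8.38 and 8.44 with DMSO and at 8.46, 8.55 and 8.44 with SCDi, and the groups met at 8.44 without overlapping before rounding. The difference was 0.07 ± 0.08, with a 95% interval from -0.08 to 0.23 (adjusted p = 0.831 by limma). With siSCD#1 the libraries moved from 8.65, 8.80 and 8.74 to 9.17, 9.16 and 9.34, a rise of 0.50 ± 0.07 (limma adjusted p = 3.36e-05), or 0.80 after quantile normalisation. With siSCD#2 they moved from 8.41, 8.56 and 8.44 to 8.74, 8.79 and 8.92, a rise of 0.34 ± 0.08 (limma adjusted p = 0.000853). The IGR37 effect was larger than the 501mel effect by 0.51 ± 0.11 with SCDi (adjusted p of the interaction 0.000841, limma) and by 0.80 ± 0.10 with siSCD#1 (9.53e-05), or 0.47 after quantile normalisation. With siSCD#2 the difference of the effects was 0.27 ± 0.11 (0.0805), which passed without 501mel siSCD#2 replicate 3 or without IGR37 siSCD#2 replicate 2 (0.0455 and 0.0206) and was 0.08 (0.656) after quantile normalisation.

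IRS1, the other adaptor, differed from IRS2 in where it was expressed and in how it moved. In the control libraries it was lower in IGR37 than in 501mel, and it passed the test after treatment in IGR37, where it started from few reads. In IGR37 it was at 1.46, 1.26 and 2.45 with DMSO (55 reads over the 3 libraries) and at 2.87, 3.05 and 3.44 with SCDi (131 reads). That rise was 1.40 ± 0.29 (limma adjusted p = 0.000377), and the groups did not overlap. With siSCD#1 the IGR37 libraries were at 2.45, 1.86 and 1.81 against 0.30, 1.31 and 1.66 with siCTR_1, a rise of 0.95 ± 0.36 (limma adjusted p = 0.0477). With siSCD#2 they were at 2.50, 2.90 and 2.26 against 2.48, 1.10 and 1.81 with siCTR, which overlap, a rise of 0.76 ± 0.29 (limma adjusted p = 0.0373). Both siRNA calls lay near the threshold. The first was lost when any of 5 of the 6 libraries was left out (adjusted p 0.0502 to 0.234) and the second when any of 4 was, namely siCTR 2 or 3 or siSCD#2 1 or 2 (0.0639 to 0.282). Their lowest values with 1 library left out were 0.56 (without siCTR_1 replicate 1) and 0.41 (without siCTR replicate 2). With only the groups compared in the fit, their adjusted p-values were 0.13 and 0.187, and the first was 0.0506 after quantile normalisation.

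In 501mel IRS1 passed no test. It was at 4.09, 3.84 and 3.98 with DMSO and at 3.31, 3.72 and 3.93 with SCDi, a difference of -0.31 ± 0.29 (limma adjusted p = 0.804). With siSCD#1 it was at 2.47, 2.60 and 3.43, below the siCTR_1 libraries at 3.61, 3.70 and 3.55, a difference of -0.79 ± 0.36 (limma adjusted p = 0.0877). The last of these siSCD#1 libraries stood closest to the controls, and without it the adjusted p was 0.0355. With siSCD#2 the difference was 0.24 ± 0.29 (limma adjusted p = 0.566). The IGR37 effect exceeded the 501mel effect by 1.71 ± 0.42 with SCDi (limma interaction, adjusted p = 0.00296) and by 1.74 ± 0.50 with siSCD#1 (0.0241, lost when any of 5 of the 12 libraries was left out).

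**Figure D1:**
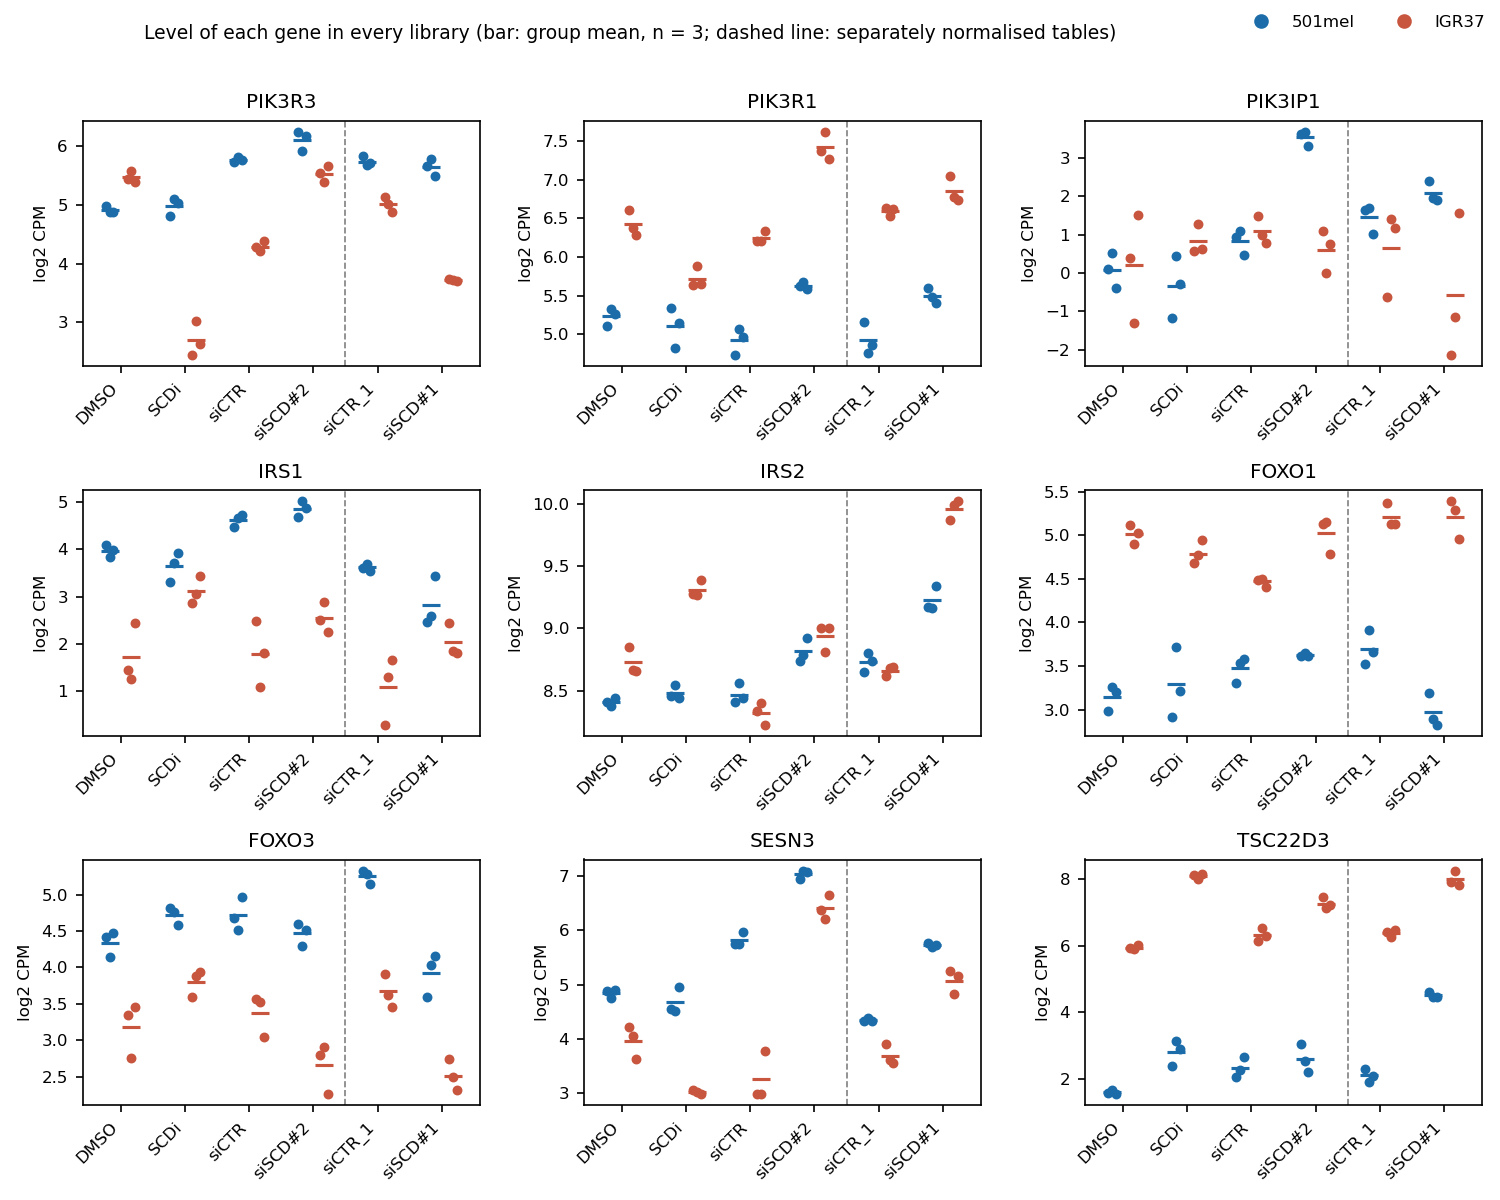
Level of each of the 9 genes (vertical axes, log2 CPM) in the 6 groups of each line, with 1 point per library and a bar at the mean of 3. The dashed line separates the tables, which were normalised separately. TSC22D3 lies at 5.89 or above in IGR37 and at 4.61 or below in 501mel, and PIK3R3 is lowest in IGR37 with SCDi (2.70).

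PIK3R1 encodes the p85α regulatory subunit of PI3-kinase, which holds the catalytic subunit and is brought to the adaptors. Its transcript fell with the inhibitor in IGR37 and rose with siSCD#2 in both lines. In IGR37 it was at 6.61, 6.38 and 6.28 with DMSO and at 5.63, 5.88 and 5.65 with SCDi, a difference of -0.71 ± 0.12 (limma adjusted p = 4.85e-05). With siSCD#2 it was at 7.37, 7.62 and 7.27 against 6.20, 6.21 and 6.33 with siCTR, a rise of 1.17 ± 0.12 (limma adjusted p = 3.05e-08). Neither pair of groups overlapped. The inhibitor and siSCD#2 thus gave calls of opposite sign for this gene in the same line, each against its own control. With siSCD#1 the IGR37 libraries were at 7.05, 6.77 and 6.74 against 6.63, 6.53 and 6.62, a difference of 0.26 ± 0.11 (limma adjusted p = 0.0883). That difference passed the threshold after quantile normalisation (adjusted p = 0.0479).

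In 501mel PIK3R1 rose with both siRNAs. It moved from 5.16, 4.76 and 4.86 to 5.60, 5.48 and 5.40 with siSCD#1, by 0.57 ± 0.11 (limma adjusted p = 0.0008). With siSCD#2 it moved from 4.73, 5.07 and 4.96 to 5.62, 5.67 and 5.58, by 0.70 ± 0.12 (limma adjusted p = 7.03e-05). With SCDi the libraries at 5.34, 4.82 and 5.15 overlapped the DMSO libraries at 5.10, 5.33 and 5.26 (-0.12 ± 0.12, limma adjusted p = 0.823). The SCDi effect in IGR37 minus that in 501mel was -0.58 ± 0.18 (limma interaction, adjusted p = 0.0149), which did not pass without 501mel SCDi replicate 1 (0.0589) or IGR37 DMSO replicate 1 (0.0539). For siSCD#2 it was 0.47 ± 0.18 (0.0601), which passed without 501mel siCTR replicate 1 (0.0302) or without the IGR37 siSCD#2 library that has no matching number in the labels (0.0353), and with a pseudocount of 1 (0.0451).

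PIK3R3 encodes p55γ, a shorter regulatory subunit of the same family. Its values in this paragraph and the next are descriptions, since they were used to choose it. In IGR37 it was at 5.45, 5.58 and 5.40 with DMSO (717 reads) and at 2.44, 3.02 and 2.63 with SCDi (99 reads), a difference of -2.78 ± 0.13. It was at 5.13, 5.02 and 4.88 with siCTR_1 and at 3.74, 3.72 and 3.70 with siSCD#1, a difference of -1.29 ± 0.11. With siSCD#2 the sign was opposite, at 5.55, 5.40 and 5.66 against 4.28, 4.21 and 4.38 with siCTR, a difference of 1.25 ± 0.13. In 501mel the differences were 0.07 ± 0.13 with SCDi, -0.10 ± 0.11 with siSCD#1 and 0.34 ± 0.13 with siSCD#2. Only the last of these had groups that did not overlap (6.25, 5.92 and 6.17 against 5.74, 5.82 and 5.76).

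The siSCD#2 difference in IGR37 depends on which control is set beside it. The siCTR libraries of IGR37 were lower than its DMSO libraries (a difference of -1.19 ± 0.13), and the siSCD#2 mean of 5.53 was close to the DMSO mean of 5.48, with overlapping libraries. In 501mel the siCTR libraries were higher than DMSO by 0.86 ± 0.13. This comparison of the controls was chosen after its values were seen. Over the 8 groups of the larger table, mean PIK3R3 ran from 6.11 (501mel, siSCD#2) through 5.77 (501mel, siCTR), 5.53 (IGR37, siSCD#2), 5.48 (IGR37, DMSO), 4.98 (501mel, SCDi), 4.91 (501mel, DMSO) and 4.29 (IGR37, siCTR) to 2.70 (IGR37, SCDi). Among neighbours in that order, the libraries overlapped between IGR37 siSCD#2 and IGR37 DMSO and between 501mel SCDi and 501mel DMSO.

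PIK3R3 lies at chr1:46040140-46133036 on the minus strand (hg38), and the annotation (GENCODE 29) places a read-through gene, AL358075.4, on the same strand over 96.2% of it. That gene is not listed in the tables, and reads of both genes cannot be told apart at shared ends. PIK3R1 lies at chr5:68215720-68301821 on the plus strand. IRS1 is at chr2:226731317-226799759 and IRS2 at chr13:109752698-109786568, both on the minus strand.

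PIK3IP1, at chr22:31281593-31292534, encodes a membrane protein that binds the catalytic subunit of PI3-kinase and lowers its activity. It was close to the lowest levels that these libraries resolve, with 12 to 45 reads summed over 3 libraries in 11 of the 12 groups. The exception was 501mel with siSCD#2, at 3.62, 3.68 and 3.30 (184 reads) against 0.93, 1.09 and 0.46 with siCTR (27 reads). That rise was 2.71 ± 0.53 (limma adjusted p = 0.000231), and no library overlapped. In IGR37 siSCD#2 gave -0.47 ± 0.53 (limma adjusted p = 0.498), and the IGR37 effect minus the 501mel effect was -3.18 ± 0.75 (interaction, 0.00345). The remaining differences were -0.42 ± 0.53 (501mel) and 0.62 ± 0.53 (IGR37) with SCDi, and 0.63 ± 0.74 and -1.22 ± 0.74 with siSCD#1, none of which passed (limma adjusted p 0.221 to 0.871). At this depth a 95% interval for siSCD#1 in IGR37 ran from -2.80 to 0.36. That value rested on libraries at -2.14, -1.15 and 1.55, and without the last of them it was -2.29 (adjusted p = 0.00727).

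FOXO3, a FOXO factor that AKT restrains, fell with siSCD#1 in both lines, and the inhibitor and the siRNAs gave values of opposite sign. With siSCD#1 it moved from 5.33, 5.28 and 5.15 to 3.60, 4.04 and 4.16 in 501mel, a change of -1.32 ± 0.19 (limma adjusted p = 3.87e-05). In IGR37 it moved from 3.91, 3.62 and 3.46 to 2.74, 2.49 and 2.31, a change of -1.15 ± 0.19 (limma adjusted p = 0.000188). In both lines all siSCD#1 libraries lay below their controls. With siSCD#2 it fell in IGR37, from 3.56, 3.53 and 3.04 to 2.80, 2.90 and 2.26, a difference of -0.72 ± 0.20 (limma adjusted p = 0.00497). In 501mel siSCD#2 gave -0.25 ± 0.20 with overlapping libraries (limma adjusted p = 0.353). The IGR37 siSCD#2 call was lost with only the groups compared in the fit (adjusted p = 0.0775).

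With the inhibitor FOXO3 rose in IGR37, from 3.34, 2.75 and 3.45 to 3.59, 3.88 and 3.94, by 0.62 ± 0.20 (limma adjusted p = 0.0136). Without the lowest DMSO library (replicate 2) the difference was 0.41 (adjusted p = 0.122), without SCDi replicate 3 the adjusted p was 0.056, and with only the groups compared it was 0.0574. In 501mel the SCDi libraries at 4.82, 4.76 and 4.59 were all above the DMSO libraries at 4.42, 4.15 and 4.47, but the difference of 0.38 ± 0.20 did not pass (limma adjusted p = 0.568). FOXO3, at chr6:108559835-108684774 on the plus strand, has a near-identical copy, FOXO3B, that is listed in both tables, so its reads are uncertain where the copies share sequence. FOXO3B passed no test with siSCD#1, and its differences were 0.17 ± 0.28 in 501mel and 0.46 ± 0.28 in IGR37 (limma adjusted p = 0.666 and 0.218). With SCDi they were 0.31 ± 0.42 in 501mel and 1.00 ± 0.42 in IGR37 (limma adjusted p = 0.881 and 0.0549), so in IGR37 the copy differed by more than FOXO3, and its part in the FOXO3 value was not tested.

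FOXO1, the other FOXO factor of the 9, moved in different directions by siRNA and line. It fell with siSCD#1 in 501mel, from 3.52, 3.91 and 3.66 to 3.19, 2.89 and 2.83, a difference of -0.73 ± 0.16 (limma adjusted p = 0.00194). In IGR37 the siSCD#1 libraries at 5.39, 5.29 and 4.96 overlapped the siCTR_1 libraries at 5.37, 5.13 and 5.13. The IGR37 effect minus the 501mel effect was 0.73 ± 0.23 (limma interaction, adjusted p = 0.0358), a call lost when any of 8 of the 12 libraries was left out (0.0553 to 0.087). With siSCD#2 FOXO1 rose in IGR37, from 4.49, 4.50 and 4.41 to 5.13, 5.15 and 4.79, by 0.56 ± 0.17 (limma adjusted p = 0.00751). As for PIK3R3, the siCTR mean (4.47) lay below the DMSO mean (5.01), and the siSCD#2 mean (5.02) was close to that of DMSO. The other differences were 0.14 ± 0.17 and -0.22 ± 0.17 with SCDi in 501mel and IGR37, and 0.15 ± 0.17 with siSCD#2 in 501mel (limma adjusted p 0.304 to 0.866). FOXO1 lies at chr13:40469953-40666597 on the minus strand.

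SESN3 encodes sestrin 3, a stress protein that FOXO factors are known to turn on and that restrains mTORC1. Its values are again descriptions. Both siRNAs gave higher SESN3 in both lines, and the inhibitor gave lower values in IGR37. With siSCD#2 it moved from 2.99, 2.99 and 3.77 to 6.38, 6.20 and 6.66 in IGR37 (184 against 1367 reads), a difference of 3.16 ± 0.18. In 501mel siSCD#2 moved it from 5.75, 5.75 and 5.97 to 6.95, 7.10 and 7.07, a difference of 1.21 ± 0.18. With siSCD#1 the difference was 1.39 ± 0.14 in 501mel (4.33, 4.38 and 4.33 against 5.76, 5.70 and 5.73) and 1.38 ± 0.14 in IGR37 (3.91, 3.61 and 3.56 against 5.25, 4.82 and 5.15). None of these 4 pairs of groups overlapped.

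With SCDi, SESN3 was at 3.06, 3.02 and 2.98 in IGR37 against 4.21, 4.06 and 3.62 with DMSO, a difference of -0.94 ± 0.18 with no overlap. In 501mel it was at 4.55, 4.52 and 4.96 against 4.88, 4.75 and 4.90 (-0.17 ± 0.18). Mean SESN3 in the larger table ran from 7.04 (501mel, siSCD#2) through 6.41 (IGR37, siSCD#2), 5.83 (501mel, siCTR), 4.84 (501mel, DMSO), 4.68 (501mel, SCDi), 3.96 (IGR37, DMSO) and 3.25 (IGR37, siCTR) to 3.02 (IGR37, SCDi). Libraries overlapped between 501mel DMSO and SCDi, between IGR37 DMSO and siCTR, and between IGR37 siCTR and SCDi. SESN3, at chr11:95165513-95232541 on the minus strand, lies wholly within an annotated antisense gene, AP000787.1, which is not listed. Whether the counting used strand is not given in the sources used here.

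TSC22D3 encodes GILZ, a leucine zipper protein induced by glucocorticoids and by FOXO3. All 6 treated groups had higher means than their controls, and these too are descriptions. In IGR37 it was at 5.92, 5.89 and 6.02 with DMSO and at 8.13, 8.01 and 8.15 with SCDi, a difference of 2.15 ± 0.19. With siSCD#1 it was at 7.90, 8.25 and 7.82 against 6.40, 6.26 and 6.47 (1.62 ± 0.13), and with siSCD#2 at 7.45, 7.12 and 7.21 against 6.14, 6.53 and 6.29 (0.94 ± 0.19). In IGR37 no treated library overlapped its controls.

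In 501mel TSC22D3 started from a few reads per library and was lower throughout. It was at 1.56, 1.67 and 1.54 with DMSO (48 reads) and at 2.38, 3.12 and 2.89 with SCDi (120 reads), a difference of 1.21 ± 0.19. With siSCD#1 it was at 4.61, 4.45 and 4.47 against 2.29, 1.91 and 2.09, a difference of 2.42 ± 0.13. With siSCD#2 the libraries at 3.04, 2.52 and 2.20 overlapped the siCTR libraries at 2.06, 2.26 and 2.66 (0.26 ± 0.19, and 0.04 to 0.46 with 1 library left out). In the larger table the 4 IGR37 groups (means 8.10, 7.26, 6.32 and 5.94 for SCDi, siSCD#2, siCTR and DMSO) did not overlap each other, whereas the SCDi, siSCD#2 and siCTR groups of 501mel did. TSC22D3 is on the X chromosome at chrX:107713221-107777342, minus strand.

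**Figure D2:**
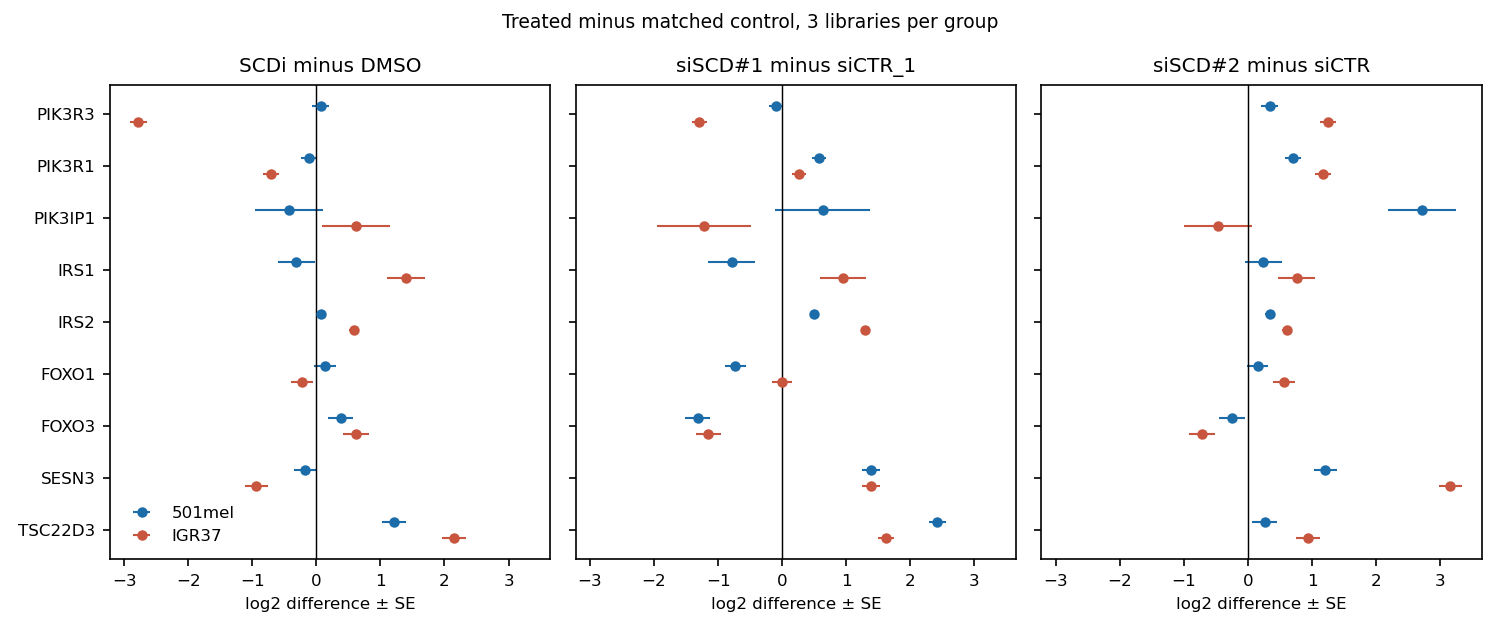
Treated-minus-control difference of each gene (horizontal axis, log2 CPM) with its SE, for SCDi, siSCD#1 and siSCD#2, by line. PIK3R3 in IGR37 is at -2.78 with SCDi, -1.29 with siSCD#1 and 1.25 with siSCD#2, and IRS2 lies above 0 in all 6 comparisons.

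Counted over the 6 genes with a test, SCDi in 501mel changed 0 of 6 by limma, where 0.292% of all genes (39) passed in either direction (17 to 31 with 1 library left out, fewest without SCDi replicate 3) and 1311 genes had an unadjusted p under 0.05. SCDi in IGR37 raised 3 of 6 (IRS1, IRS2, FOXO3) and lowered 1 (PIK3R1), against 20.9% and 23.1% of all genes. In 501mel siSCD#1 raised 2 (IRS2, PIK3R1) and lowered 2 (FOXO1, FOXO3), against 20.9% and 22.0% of all genes. In IGR37 it raised 2 (IRS1, IRS2) and lowered 1 (FOXO3), against 16.7% and 19.4%. In 501mel siSCD#2 raised 3 (IRS2, PIK3R1, PIK3IP1) and lowered 0, against 18.3% and 19.5%. In IGR37 it raised 4 (IRS1, IRS2, PIK3R1, FOXO1) and lowered 1 (FOXO3), against 23.2% and 22.7%. The effects of the lines differed for 3 of 6 genes with SCDi, 3 with siSCD#1 and 1 with siSCD#2, where 27.6%, 20.3% and 21.1% of all genes did. IRS2 was called higher in 5 of the 6 comparisons, a count for which no share of all genes was taken. Its mean level was at percentile 97.4 and 98.3 of genes. Its SE was 0.07 to 0.08, against 0.11 to 0.74 for the other tested genes, so smaller differences could pass for IRS2. Over all 9 genes the libraries did not overlap for 3 with SCDi in 501mel and 7 in IGR37, where 18.5% and 58.1% of all genes did not. The same count was 8 and 7 with siSCD#1 (53.2% and 48.7% of all genes) and 6 and 7 with siSCD#2 (47.2% and 50.6%), and since it includes the genes chosen on these differences nothing is read from it. With 6 genes these shares are coarse, and the genes were chosen with earlier results known.

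The lines also differed before SCD was touched, and this comparison is separate from the contrasts that chose the genes, though it uses the same control libraries. In DMSO 5 of the 9 genes were higher in IGR37 and 3 lower, where 31.1% and 29.7% of all genes were. Under siCTR 3 were higher and 4 lower (32.1% and 30.4% of all genes), and under siCTR_1 3 and 4 (31.1% and 29.2%). TSC22D3 had the largest difference, at 4.35 ± 0.19 in DMSO (5.92, 5.89 and 6.02 in IGR37 against 1.56, 1.67 and 1.54), with limma adjusted p = 6.65e-16. It was 4.0 ± 0.19 under siCTR and 4.28 ± 0.13 under siCTR_1 (limma adjusted p = 3.31e-15 and 4.56e-13).

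The adaptors and the FOXO factors split between the lines. IRS1 was lower in IGR37, with differences of -2.25 ± 0.29 in DMSO, -2.82 ± 0.29 under siCTR and -2.53 ± 0.36 under siCTR_1 (limma adjusted p 8.48e-09 to 1.55e-05). IRS2 was higher by 0.32 ± 0.08 in DMSO (limma adjusted p = 0.00089) but at -0.15 ± 0.08 and -0.06 ± 0.07 under the control siRNAs (0.0966 and 0.444). FOXO1 was higher in IGR37 by 1.86 ± 0.17, 0.99 ± 0.17 and 1.51 ± 0.16, and FOXO3 was lower, with differences of -1.17 ± 0.20, -1.35 ± 0.20 and -1.59 ± 0.19, in the same order (limma adjusted p 5.23e-10 to 1.99e-05). PIK3R1 was higher in IGR37 under all 3 controls, by 1.19 ± 0.12, 1.32 ± 0.12 and 1.67 ± 0.11 (limma adjusted p 1.37e-09 to 9.12e-09).

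PIK3R3 changed sign with the control. It was higher in IGR37 by 0.56 ± 0.13 in DMSO (limma adjusted p = 0.000546) and lower under the control siRNAs, at -1.48 ± 0.13 under siCTR (3.49e-10) and -0.73 ± 0.11 under siCTR_1 (3.79e-05). SESN3 was lower in IGR37, with differences of -0.88 ± 0.18, -2.58 ± 0.18 and -0.65 ± 0.14 (limma adjusted p 3.58e-12 to 0.000598). PIK3IP1 passed under none of the controls (limma adjusted p 0.367 to 0.859), with a DMSO interval from -0.97 to 1.22.

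**Figure D3:**
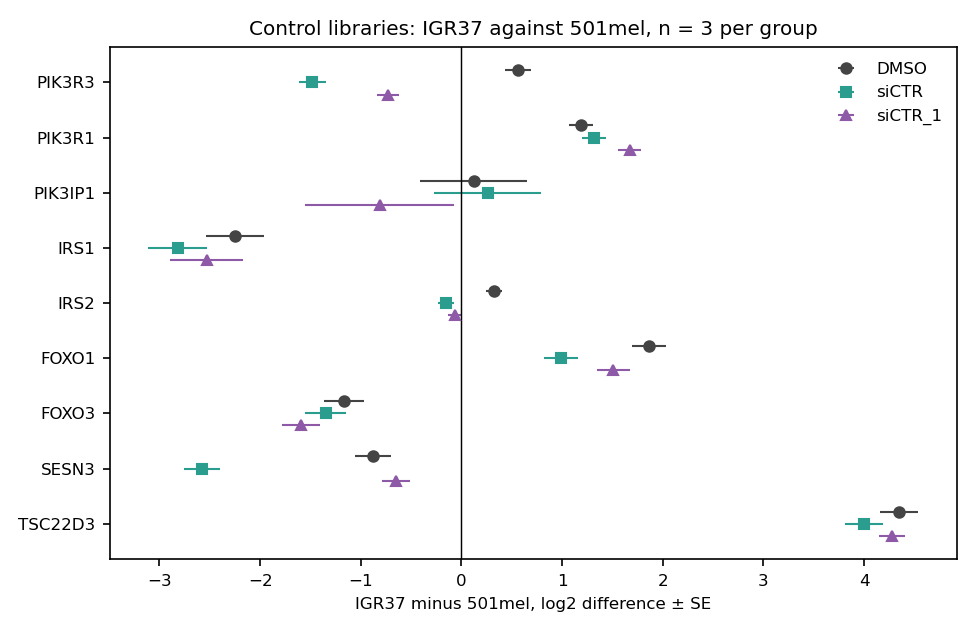
IGR37 minus 501mel difference of each gene (horizontal axis, log2 CPM) with its SE under DMSO, siCTR and siCTR_1. TSC22D3 lies near 4 under each control, and PIK3R3 is above 0 in DMSO (0.56) and below 0 under siCTR (-1.48) and siCTR_1 (-0.73).

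Around these 9 genes, 7 lists of pathway genes (114 genes, of which 102 or 99 were listed in a table) were read in the same fits. The lists were drawn up with earlier results of these data known, and are described by counts with no test. Beside the counts of every list stand the shares of all genes. Outside SCDi in 501mel, 16.7% to 23.2% of all genes were called higher and 19.4% to 23.1% lower, depending on the comparison. With SCDi in 501mel 0.292% were called in either direction. In the list of FOXO factors and textbook FOXO targets, SCDi raised 0 and lowered 1 of 31 genes in 501mel and raised 16 and lowered 6 in IGR37. With siSCD#1 15 rose and 6 fell of 30 in 501mel, and 20 rose and 3 fell in IGR37. With siSCD#2 9 rose and 7 fell of 31 in 501mel, and 16 rose and 5 fell in IGR37. The list medians were 0.08, 0.54, 0.46, 0.77, 0.29 and 0.57 in that order, beside medians of all genes between -0.01 and 0.01. The list holds FOXO factors as well as targets, and the targets were not sorted by whether FOXO raises or lowers them. Its counts and medians thus have no single FOXO direction, and FOXO activity was not tested.

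GADD45A, a DNA damage response gene, rose by 2.90 ± 0.21 with siSCD#1 and 1.52 ± 0.26 with siSCD#2 in 501mel, and by 2.20 ± 0.26 with siSCD#2 in IGR37. BBC3, which encodes the cell death protein PUMA, rose by 3.08 ± 0.17 with SCDi in IGR37 and by 2.28 ± 0.11 with siSCD#1 in IGR37. PRDX3, a mitochondrial peroxidase, fell with siSCD#2, with differences of -3.09 ± 0.14 in 501mel and -1.79 ± 0.14 in IGR37. The 1 gene called in 501mel with SCDi was CDKN1A, a cell cycle inhibitor, which had 0 reads in the treated libraries and 4 in the controls. With siSCD#2 in 501mel the call on it rested on 0 against 3 reads, so no fold is given for either. In IGR37 CDKN1A was called higher with SCDi (509 against 201 reads) and with siSCD#1 (547 against 192 reads). With siSCD#2 in IGR37 it had 257 against 77 reads.

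Among sestrins and other stress inhibitors of AKT or mTORC1 (6 genes listed), SCDi raised 2 and lowered 0 in 501mel and raised 3 and lowered 1 in IGR37. With siSCD#1 4 rose and 1 fell in 501mel and 5 rose and 0 fell in IGR37, and with siSCD#2 3 rose and 1 fell, and 5 rose and 0 fell. SESN2, the sestrin known to respond to ATF4, rose in all 6 comparisons, by 1.44 ± 0.15 and 3.49 ± 0.15 with SCDi (501mel, IGR37), 3.16 ± 0.12 and 3.95 ± 0.12 with siSCD#1, and 2.12 ± 0.15 and 2.85 ± 0.15 with siSCD#2. SESN3 thus differed from SESN2 in IGR37 under SCDi, where its difference was -0.94. TRIB3, a pseudokinase that binds AKT, rose by 2.86 ± 0.12 with SCDi and 2.60 ± 0.08 with siSCD#1 in IGR37.

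Other subunits of PI3-kinase had calls in both directions. Of 10 listed genes (8 in the siSCD#1 table), SCDi changed 0 in 501mel and raised 2 and lowered 1 in IGR37. With siSCD#1 0 rose and 3 fell in 501mel, where 20.9% and 22.0% of all genes did, and 2 rose and 2 fell in IGR37, where 16.7% and 19.4% did. With siSCD#2 1 rose and 2 fell in 501mel, and 1 rose and 1 fell in IGR37. The catalytic subunit gene PIK3CB fell by 0.47 ± 0.12 with SCDi in IGR37 and fell by 0.53 ± 0.12 with siSCD#1 in 501mel. PIK3CD, another catalytic subunit, rose by 0.64 ± 0.08 with siSCD#1 in IGR37 and fell by 0.33 ± 0.09 with siSCD#2 in 501mel.

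The list of receptors and adaptors had 0 up and 0 down of 13 with SCDi in 501mel, 5 and 3 in IGR37, 6 and 4 then 6 and 1 with siSCD#1, and 2 and 6 then 4 and 4 with siSCD#2 (501mel, then IGR37). The insulin receptor gene INSR rose by 1.20 ± 0.23 with SCDi in IGR37. Phosphatases of the pathway had 0 and 0 of 11, 2 and 1, 1 and 3, 4 and 2, 5 and 1, and 4 and 1 in the same order.

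AKT and mTOR kinases and their partners had 0 and 0 of 21, 3 and 7, 5 and 8, 4 and 4, 4 and 6, and 5 and 6 in the same order. AKT1 fell in IGR37, with differences of -0.99 ± 0.24 with siSCD#1 and -1.24 ± 0.15 with siSCD#2. EIF4EBP2, a translation repressor that mTORC1 switches off, fell in IGR37, with differences of -1.14 ± 0.09 with SCDi and -1.53 ± 0.09 with siSCD#2. EIF4EBP1, of the same family, went the other way with SCDi in IGR37, rising by 1.28 ± 0.15. Every list gene named with a value here passed in the limma fit (adjusted p under 0.05 over all genes).

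The glucocorticoid-responsive and TSC22 family list, set beside TSC22D3, had 0 up and 0 down of 10 with SCDi in 501mel, 7 and 1 in IGR37, 5 and 0 then 5 and 1 with siSCD#1, and 4 and 3 then 6 and 2 with siSCD#2. NFKBIA, an inhibitor of NF-κB, rose by 1.54 ± 0.09 with SCDi in IGR37 and by 1.77 ± 0.09 with siSCD#1. FKBP5, a textbook glucocorticoid target, fell in IGR37 in the same comparisons, with differences of -1.20 ± 0.22 and -1.99 ± 0.25, in which TSC22D3 was higher. It was the 1 gene of this list called lower in each of them. PER1, also of this list, rose by 1.51 ± 0.13 with SCDi in IGR37, where 7 genes were called higher. TSC22D1, of the same family as TSC22D3, rose by 2.01 ± 0.10 with siSCD#2 in IGR37.

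**Figure D4:**
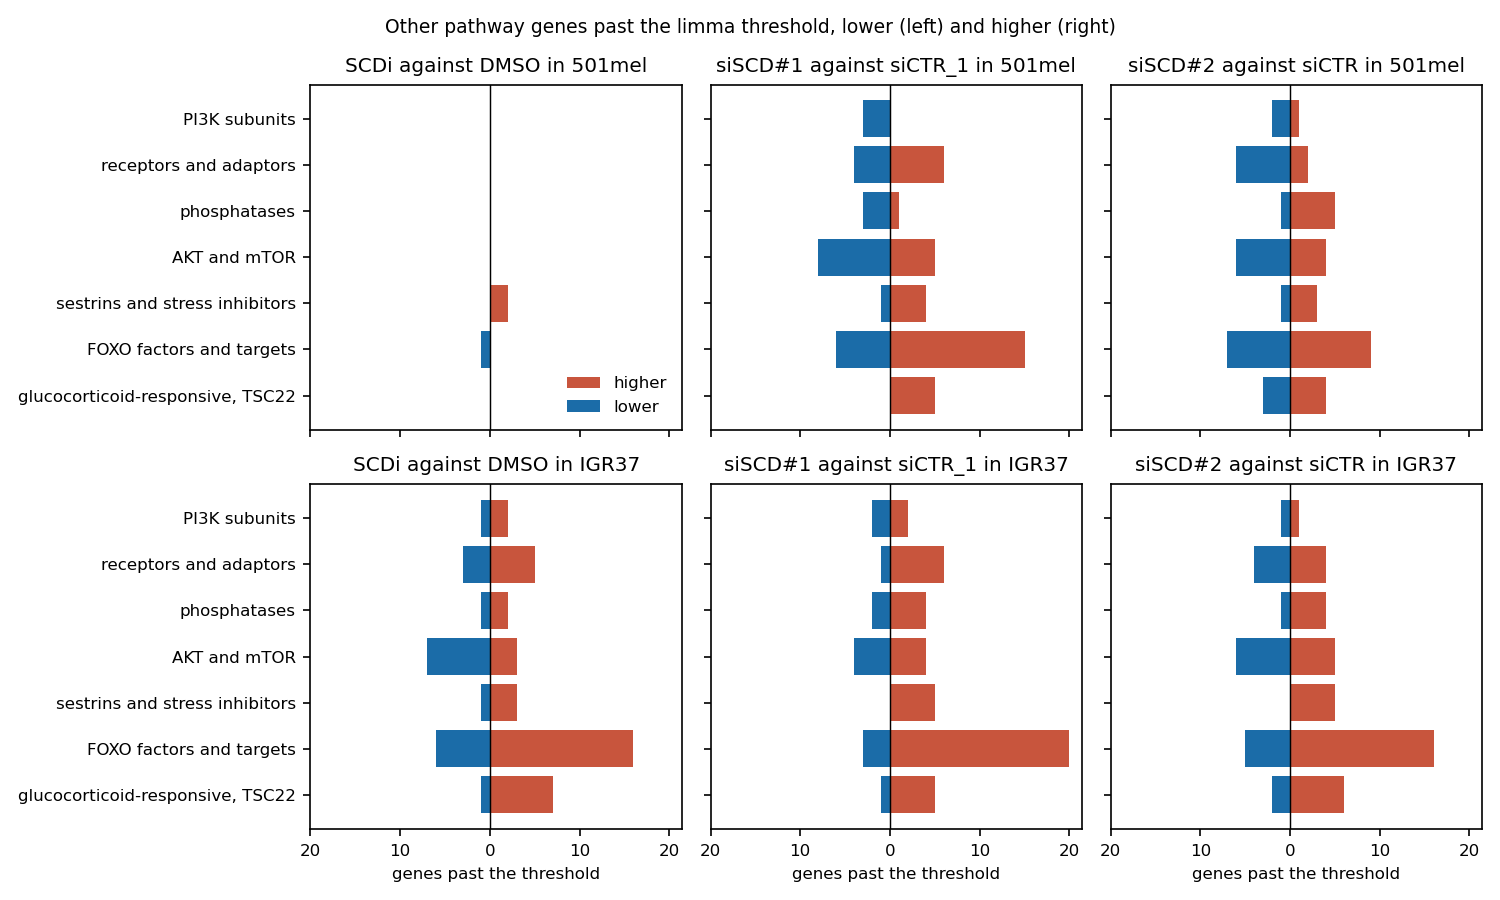
Number of genes higher (right) or lower (left) at adjusted p under 0.05 in each of 7 pathway lists, by comparison. The FOXO list has 16 up and 6 down with SCDi in IGR37 and 20 up and 3 down with siSCD#1 in IGR37, and SCDi in 501mel has 2 up and 1 down over all lists.

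Genes with the most similar pattern were ranked by Pearson r over the 24 libraries of the larger table after each line's mean was subtracted, and the same r was taken over the 12 libraries of the other table. Libraries of one group share a treatment and are not independent, so r is a description. For PIK3R3 the closest were PCGF3 (0.949, and 0.824 in the other table), NCALD (0.938 and 0.481) and AGPAT5 (0.936 and 0.932). For TSC22D3 they were ANKZF1 (0.896 and 0.589), TRIB3 (0.893 and 0.919) and CARS (0.892 and 0.867). For SESN3 they were SCARB2 (0.961 and 0.094), CHL1 (0.961 and -0.849) and NAGPA (0.955 and 0.521). For SESN3 the likeness in the larger table was not carried into the siSCD#1 table, where CHL1 ran opposite.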

How the data were processed

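RNA from 36 libraries of 501mel and IGR37 was made into 3′ tag libraries from 500 ng of RNA, per the labels' protocols. Reads were processed with STAR, edgeR and the hg38 build, per the submitters' processing notes; settings and versions are not given in the sources used here. The authors deposited 2 tables of log2 CPM (counts scaled to a normalised library size), with spike-ins (66 and 60) listed beside genes. The values correspond to whole reads to within 3.95e-07 of a read below 1000 reads, and read numbers in the text come from that step.

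Spike-ins were left out and every deposited gene was tested. Each table was fitted across all its libraries with limma 3.58.1 in R 4.3.3 (one mean per group, moderated variance with a trend), with Benjamini-Hochberg adjustment over all genes of the table and calls at an adjusted p under 0.05. The fit was tested on simulated data. Intervals are 95% and errors are SE. The same fit gave the line differences and the difference of effects between lines.

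The 9 genes and the lists were chosen with earlier results of these data known, so PIK3R3, SESN3 and TSC22D3 have no p-value in treated comparisons. From each list the text names up to 2 of the largest rises and falls per comparison, and CDKN1A also in IGR37. Alternatives were quantile normalisation, a pseudocount of 1, a filter on low genes (3 libraries above a log2 value of 2), only the groups compared, a replicate block, and leaving out each library. Positions are from GENCODE 29 and promoters from RefSeq.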

Additional observations from a re-analysis of the deposited data

Results flagged for a closer look

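For 7 results the SCD effect differed between the lines by the interaction term of the limma fit, given as the IGR37 effect minus the 501mel effect on the log2 scale. With SCDi the difference was 1.71 ± 0.42 for IRS1 (limma adjusted p = 0.00296), 0.51 ± 0.11 for IRS2 (0.000841) and -0.58 ± 0.18 for PIK3R1 (0.0149). The PIK3R1 call was lost in 2 of the 12 fits that left out 1 library, without 501mel SCDi replicate 1 (0.0589) and without IGR37 DMSO replicate 1 (0.0539). With siSCD#1 it was 0.73 ± 0.23 for FOXO1 (0.0358), 1.74 ± 0.50 for IRS1 (0.0241) and 0.80 ± 0.10 for IRS2 (9.53e-05). The FOXO1 call was lost in 8 of 12 such fits (0.0553 to 0.087) and the IRS1 call in 5 of 12 (0.0519 to 0.0584). With siSCD#2 it was -3.18 ± 0.75 for PIK3IP1 (0.00345), where 501mel had 184 reads with siSCD#2 and IGR37 had 25.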

How the results depend on the processing

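Most values kept their direction and their side of the threshold. With only the groups compared in the fit, SCDi in 501mel called 8 genes in place of 39, and the siSCD#2 difference between lines called 1821 in place of 2819. Leaving out 1 library of the SCDi comparison in 501mel gave 17 to 31 genes (17 without SCDi replicate 3, 18 without SCDi replicate 2). The sign turned for differences near 0. With 1 library left out, SCDi against DMSO in 501mel ran from -0.08 to 0.32 for FOXO1 and from -0.24 to 0.02 for PIK3R1 (both turned without SCDi replicate 2), and in IGR37 from -0.13 (without DMSO replicate 2) to 1.28 for PIK3IP1. FOXO1 with siSCD#1 in IGR37 ran from -0.09 to 0.13, below 0 without siCTR_1 replicate 2 or 3 or siSCD#1 replicate 1 or 2. Between lines in DMSO, PIK3IP1 ran from -0.54 (without IGR37 replicate 3) to 0.87, and was -0.11 without 501mel replicate 3 and -0.43 with quantile normalisation, and under siCTR with quantile normalisation (-0.20). IRS2 under siCTR_1 turned with quantile normalisation (0.07). The causes were not tested.

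Same-numbered libraries did not deviate together (0 of 17 pairs had a residual correlation over 0.1). The labels do not say whether the numbers pair the samples, and this check cannot show how they were prepared. With the replicate block, IRS1 with siSCD#1 in IGR37 (adjusted p = 0.0545) and FOXO3 with siSCD#2 in IGR37 (0.0658) no longer passed, and PIK3R1 passed with siSCD#1 in IGR37 (0.0451) and in the siSCD#2 difference between lines (0.0499). That fit also left out the IGR37 siSCD#2 library with no matching number, so its siSCD#2 results in IGR37 do not show the block alone. In it the FOXO3 difference was -0.49. The PIK3R1 difference between lines was 0.54, the same as without that library and with no block. The stricter filter kept 11388 and 11149 genes and changed no call on those of the 9 that it kept. It dropped PIK3IP1 from the table with siSCD#1, so PIK3IP1 was not checked there. PIK3IP1 and TSC22D3 in 501mel rest on few reads, and depth limits both.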
